A study of Mus musculus with 11 samples.

Results

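The genes described here are 41 genes of the interferon response and of antigen presentation by MHC class I, followed in cultured mouse neural stem cells and in the cultures obtained from them by a change of medium. They were taken by symbol from the deposited expression table, and all 41 were found among its 37991 genes. Psmb9 has 2 entries there, so the 41 genes occupy 42 rows. By role, 10 belong to antigen presentation, 3 are receptors, 5 are transcription factors, 4 sense RNA or serve that sensing, and 19 are effectors.

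Cells from the frontal cortex of C57BL/6J embryos at E14.5 were expanded in NeuroCult proliferation medium. The group NSC is the day 0 culture in that medium (3 libraries). The day 4 groups are Astrocyte (3 libraries; DMEM, 1% N-2 and 1% fetal bovine serum), Neuron (3 libraries; Neurobasal and 2% B-27) and Oligodendrocyte (2 libraries; the Neuron medium plus T3, a thyroid hormone, at 30 ng/mL). All differentiation media held GlutaMAX. The series text calls the replicates biological, without saying whether they came from separate embryos or flasks, so p-values measure the spread between these libraries. No culture was kept in proliferation medium to day 4, so medium and time cannot be told apart in comparisons with NSC. Base medium, supplement and serum all differ between Astrocyte and the other day 4 groups, and their parts cannot be told apart either. Only Oligodendrocyte and Neuron differ by a single listed agent, T3. Values are CPM, reads of a gene scaled to a common library total. These are bulk cultures, in which fewer cells of a type and less RNA per cell cannot be told apart.

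Type I interferons bind the receptor built from Ifnar1 and Ifnar2. This leads to a complex that contains Stat2 and Irf9 and binds a DNA element called ISRE in front of interferon-stimulated genes. Interferon gamma binds a receptor that contains Ifngr1 and acts through an element called GAS. Among the genes induced are those of class I presentation, in which proteasomes cut proteins, the Tap transporter carries the peptides into the endoplasmic reticulum, and B2m and a heavy chain such as H2-K1 show them at the surface. Resting cells of the nervous system are known for low class I levels, and astrocytes are known to raise them when exposed to interferon.

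The group names stand for media, and the cultures were mixed by their markers. Gfap, the intermediate filament of astrocytes, averaged 2.22 CPM in NSC, 7631 in Astrocyte, 2647 in Neuron and 284 in Oligodendrocyte. Mbp, a myelin protein of oligodendrocytes, averaged 1.71, 38.1, 495 and 594 CPM in the same order. Of 5 neuronal markers, Dcx, of young neurons, averaged 1.60 CPM in NSC, 125 in Astrocyte, 148 in Neuron and 86.6 in Oligodendrocyte. Tubb3, a tubulin of neurons, averaged 3.90, 41.2, 28.45 and 44.8 CPM, and Syp, of synaptic vesicles, 11.6, 15.7, 21.1 and 14.2 CPM in that order. The other two were low, Stmn2 under 1 CPM in all 11 libraries and Rbfox3 between 0.51 and 2.80 CPM. The group names are used here only for the medium. Estimated depth was 49.3 to 66.2 M (mega) reads per library, 1 read being worth 0.0151 to 0.0203 CPM. Libraries of a group correlated more closely with each other than with those of any other group (Pearson's r of log2(CPM + 1) over 13342 genes, which are no replicates).

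The promoters of these genes are shown first because letters like those of the elements through which interferon acts can be searched for in them. RefSeq promoter windows (build GRCm38.p6, 250 bases before to 50 after the annotated start) were found for 32 of the 41 genes, in 37 windows. The ISRE-like core searched was GAAANNGAAA, or TTTCNNTTTC on the other strand. It occurred in 13 of the 32 genes (40.6%), against 3.99% of the 27025 genes of the table used. These 13 genes are B2m, Stat2, Ifih1, Ddx58, Gbp2, Gbp3, Ifit1, Ifit3, Isg15, Oas1a, Rsad2, Bst2 and Ifitm3. By role, the core was in 9 of 13 effectors, 2 of 3 RNA sensing genes, 1 of 5 transcription factors, 1 of 8 presentation genes and 0 of 3 receptors. The GAS-like core TTCNNNGAA, which reads the same on both strands, occurred in 9 of the 32 genes (28.1%), against 9.55% of all genes. A promoter held both in 3 cases, Bst2, Ifitm3 and Oas1a, and in Bst2 and Ifitm3 the matches share letters. A match describes the letters of the window and does not show that a factor binds.

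The 6 promoters printed are those with the core in the 250 bases before the start, from the genes described in full with the largest log2 fold changes in any of the 6 comparisons. Ifih1 changed as much, but its core does not lie within those 250 bases. Each line gives the 250 bases before the start, 5′ to 3′ on the gene's strand, with the core in capitals:
Gbp2: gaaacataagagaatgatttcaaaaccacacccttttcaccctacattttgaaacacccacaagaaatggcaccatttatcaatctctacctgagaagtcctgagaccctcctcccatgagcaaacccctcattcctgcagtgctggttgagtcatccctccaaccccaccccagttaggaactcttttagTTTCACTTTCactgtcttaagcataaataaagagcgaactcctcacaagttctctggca
Ifit3: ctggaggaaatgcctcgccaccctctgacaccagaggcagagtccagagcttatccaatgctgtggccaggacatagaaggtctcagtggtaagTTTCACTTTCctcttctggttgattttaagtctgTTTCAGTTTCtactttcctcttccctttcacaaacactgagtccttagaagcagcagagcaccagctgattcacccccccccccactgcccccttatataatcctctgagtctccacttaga
Rsad2: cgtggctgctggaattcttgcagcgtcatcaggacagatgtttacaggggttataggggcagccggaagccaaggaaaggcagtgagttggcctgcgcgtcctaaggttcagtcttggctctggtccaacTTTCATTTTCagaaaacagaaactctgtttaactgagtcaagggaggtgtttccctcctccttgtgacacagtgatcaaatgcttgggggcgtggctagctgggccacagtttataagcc
Gbp3: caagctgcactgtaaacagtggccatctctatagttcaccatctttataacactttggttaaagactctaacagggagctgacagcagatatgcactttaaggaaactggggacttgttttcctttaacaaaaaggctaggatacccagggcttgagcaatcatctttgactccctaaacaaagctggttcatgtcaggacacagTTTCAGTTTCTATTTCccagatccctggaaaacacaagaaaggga
Ifit1: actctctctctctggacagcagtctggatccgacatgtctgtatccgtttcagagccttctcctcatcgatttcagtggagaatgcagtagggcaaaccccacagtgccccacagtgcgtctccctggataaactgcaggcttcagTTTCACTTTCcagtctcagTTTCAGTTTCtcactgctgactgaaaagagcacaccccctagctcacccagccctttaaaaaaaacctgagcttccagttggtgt
Bst2: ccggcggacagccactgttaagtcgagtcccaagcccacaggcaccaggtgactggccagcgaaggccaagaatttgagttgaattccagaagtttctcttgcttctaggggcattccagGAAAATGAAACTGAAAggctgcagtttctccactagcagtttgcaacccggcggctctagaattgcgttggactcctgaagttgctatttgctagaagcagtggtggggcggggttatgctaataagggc
In GRCm38.p6 these windows lie at chr3:142620413-142620662 (plus strand) for Gbp2, chr19:34583279-34583528 (plus strand) for Ifit3, chr12:26456453-26456702 (minus strand) for Rsad2, chr3:142559794-142560043 (plus strand) for Gbp3, chr19:34640639-34640888 (plus strand) for Ifit1 and chr8:71537473-71537722 (minus strand) for Bst2. The core of Gbp2 began 59 bases before the start and that of Rsad2 120 bases before it. Ifit3 had cores beginning 156 and 122 bases before the start, and Ifit1 had them 104 and 85 bases before it. In Gbp3 (45 and 39 bases) and Bst2 (130 and 124 bases) the 2 cores overlap. Of these 6 genes, Gbp2, Ifit3, Rsad2 and Ifit1 rose in all 3 media, while Gbp3 and Bst2 fell in Neuron.

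Of the 41 genes, 37 passed the filter of at least 1 CPM in at least 2 libraries and were tested. The 4 others were Psmb9, Oas1a, Dhx58 and Mx1. Among the 37, 11 were under 1 CPM in every NSC library and entered the test only through their day 4 values, so their rise is built into the choice. Changes are log2 fold changes of CPM + 1 with standard errors, a scale that understates changes of low genes. They come from limma's moderated test, with p-values adjusted over all 13342 genes and a call at an adjusted p under 0.05. Adjusted p-values printed below all come from that test.

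From day 0 to day 4 most of these genes rose, most of all in Astrocyte medium. In Astrocyte vs NSC, 32 of the 37 genes rose and 1 fell, where 48.0% of all tested genes rose and 35.6% fell. At 2-fold or more, 22 rose and 0 fell, against 21.4% and 12.3% of all genes. The single fall, of Ifnar1, was not called without NSC replicate 3 or without Astrocyte replicate 3, which left 0 falls. Neuron vs NSC had 23 rises and 7 falls, against 43.5% and 39.6% of all genes. At 2-fold these were 12 and 2, against 17.9% and 13.8%. The falls of at least 2-fold were 1 without Neuron replicate 1. Oligodendrocyte vs NSC had 30 rises and 4 falls, against 48.1% and 32.2%. At 2-fold there were 18 rises and 1 fall, against 21.2% and 10.7%.

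The median log2 fold change of the 37 genes was 1.35 in Astrocyte, 0.55 in Neuron and 0.96 in Oligodendrocyte against NSC, beside 0.15, 0.06 and 0.19 for all genes tested. Scaling by median of ratios moved the medians of all genes to 0.01, 0.02 and 0.01, and those of the 37 genes to 1.21, 0.56 and 0.83. Under quantile normalization the medians of the 37 genes were lower, at 0.98, 0.16 and 0.57, beside -0.04, -0.01 and -0.04 for all genes. Among the 26 genes that reached 1 CPM in an NSC library, 21 rose (80.8%) and 1 fell (3.85%) in Astrocyte. The shares of all genes there were 48.0% and 35.6%. In Neuron 15 of the 26 rose (57.7%) and 7 fell (26.9%), against 43.5% and 39.6% of all genes. In Oligodendrocyte 19 rose (73.1%) and 4 fell (15.4%), against 48.1% and 32.2%. A rise in all 3 media was called for 22 of 37 genes (59.5%), compared with 34.4% of all genes. Of these 22, 5 (Irf1, Irf7, Psmb8, Isg15 and Rtp4) were not called in Neuron under quantile normalization. The 3 comparisons share the NSC libraries. NSC had the lowest mean for 24 of the 37 genes (64.9%), against 44.6% of all genes. Of the 11 genes that entered the test only through their day 4 values, 11 rose in Astrocyte, 8 in Neuron and 11 in Oligodendrocyte. Part of the counts of 22 and 24 comes from these genes and is built into that choice.

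**Figure D1:**
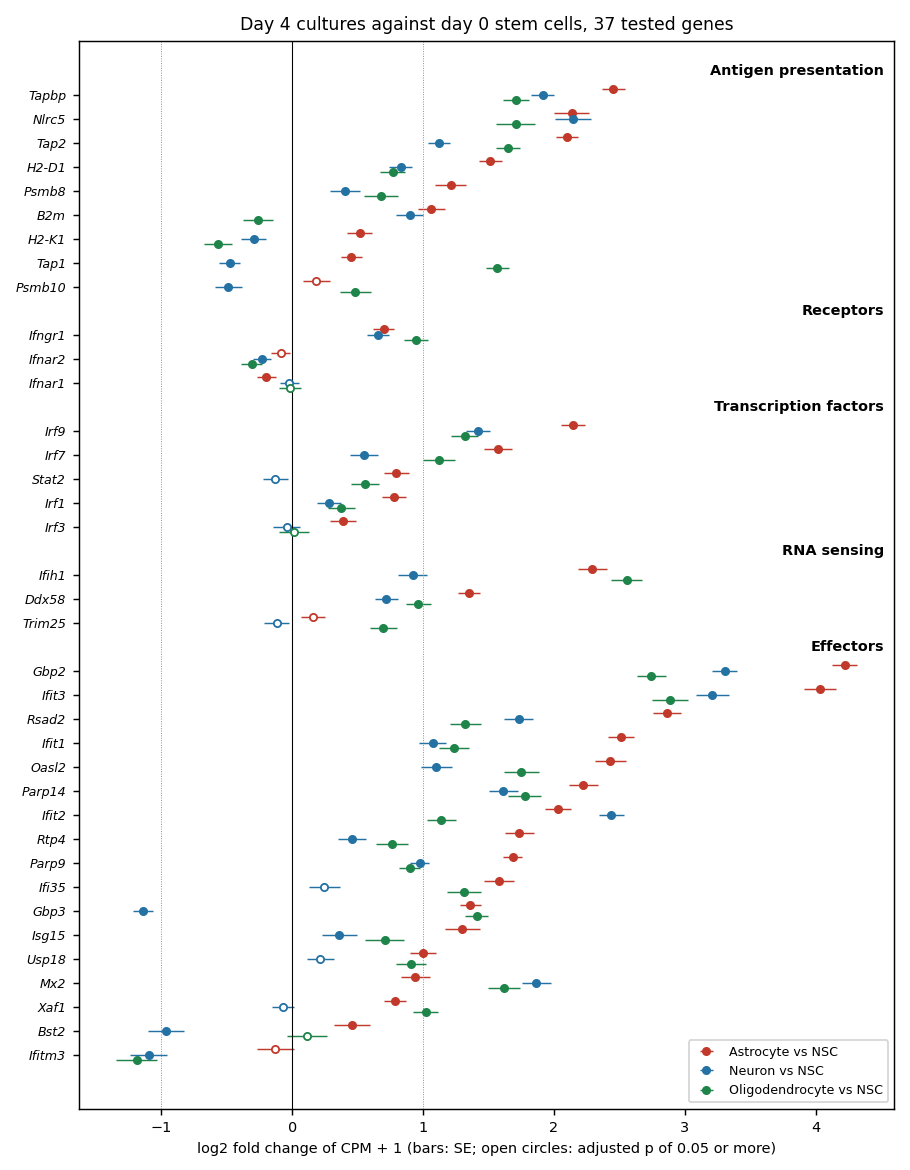
Log2 fold change of CPM + 1 against NSC (x axis) for the 37 tested genes, grouped by role, in Astrocyte (red), Neuron (blue) and Oligodendrocyte (green); bars are standard errors, open circles were not called, and dotted lines mark 2-fold. Gbp2 and Ifit3 lie farthest to the right in all 3 media, while Gbp3, Bst2, Tap1, Psmb10 and H2-K1 lie on opposite sides of 0 in Astrocyte or Oligodendrocyte and in Neuron, with H2-K1 below 0 in both Neuron and Oligodendrocyte.

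The day 4 groups differed from each other too. In Astrocyte vs Neuron, 30 genes were higher and 2 lower in Astrocyte, against 40.3% and 22.0% of all genes. At 2-fold these were 9 and 0, against 6.39% and 2.95%. Without Astrocyte replicate 1 or without Neuron replicate 2, 1 gene was at least 2-fold lower. Oligodendrocyte vs Astrocyte had 5 higher and 24 lower genes, against 28.7% and 23.5%, and 1 and 7 at 2-fold, against 4.53% and 3.41%. The 5 higher genes were 3 without NSC replicate 2, without Astrocyte replicate 1 or without Astrocyte replicate 2. Oligodendrocyte vs Neuron, the comparison that differs by T3, had 16 higher (43.2%) and 6 lower genes (16.2%), against 43.9% and 23.6% of all genes. The share of higher genes was thus near that of all genes. At 2-fold the counts were 6 and 2, against 8.96% and 3.58%. The 6 lower genes were 3 without Oligodendrocyte replicate 2. This split depended on scaling, with 13 higher and 12 lower under median of ratios and 13 and 13 under quantile normalization. The median log2 fold changes of the 37 genes were 0.81 in Astrocyte vs Neuron, -0.45 in Oligodendrocyte vs Astrocyte and 0.16 in Oligodendrocyte vs Neuron, beside 0.10, 0.04 and 0.15 for all genes. That of Oligodendrocyte vs Neuron was 0.07 under median of ratios and turned to -0.03 under quantile normalization.

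Astrocyte had the highest mean for 25 of the 37 genes (67.6%), against 21.7% of all genes, and under median-of-ratios scaling for 24 (64.9%), against 18.99%. In 19 of the 37 (51.4%) the level was called higher in Astrocyte than in each of the other groups, against 10.3% of all genes. Oligodendrocyte was called highest for 4 genes, Tap1, Psmb10, Trim25 and Ifngr1 (10.8%, against 12.9%), and Neuron for Ifit2 alone (2.70%, against 9.05%). Both Astrocyte and Oligodendrocyte were called higher than Neuron for 15 genes (40.5%, against 29.6%). Among those 15 were Gbp3, Bst2, Tap1, Ifih1 and Stat2. The counts of 25, 19 and 15 include genes that passed the filter only through day 4 values, so they are partly built into that choice. Of the 26 genes that reached 1 CPM in an NSC library, 21 (80.8%) were higher and 1 (3.85%) lower in Astrocyte than in Neuron. For Oligodendrocyte vs Astrocyte, 4 of the 26 (15.4%) were higher and 17 (65.4%) lower. The shares of all genes were 40.3% and 22.0%, and 28.7% and 23.5%. Calls depended on single libraries for part of these values. Of 180 calls over 37 genes and 6 comparisons, 23 were lost when 1 of the 11 libraries was left out, and 17 calls were gained.

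**Figure D2:**
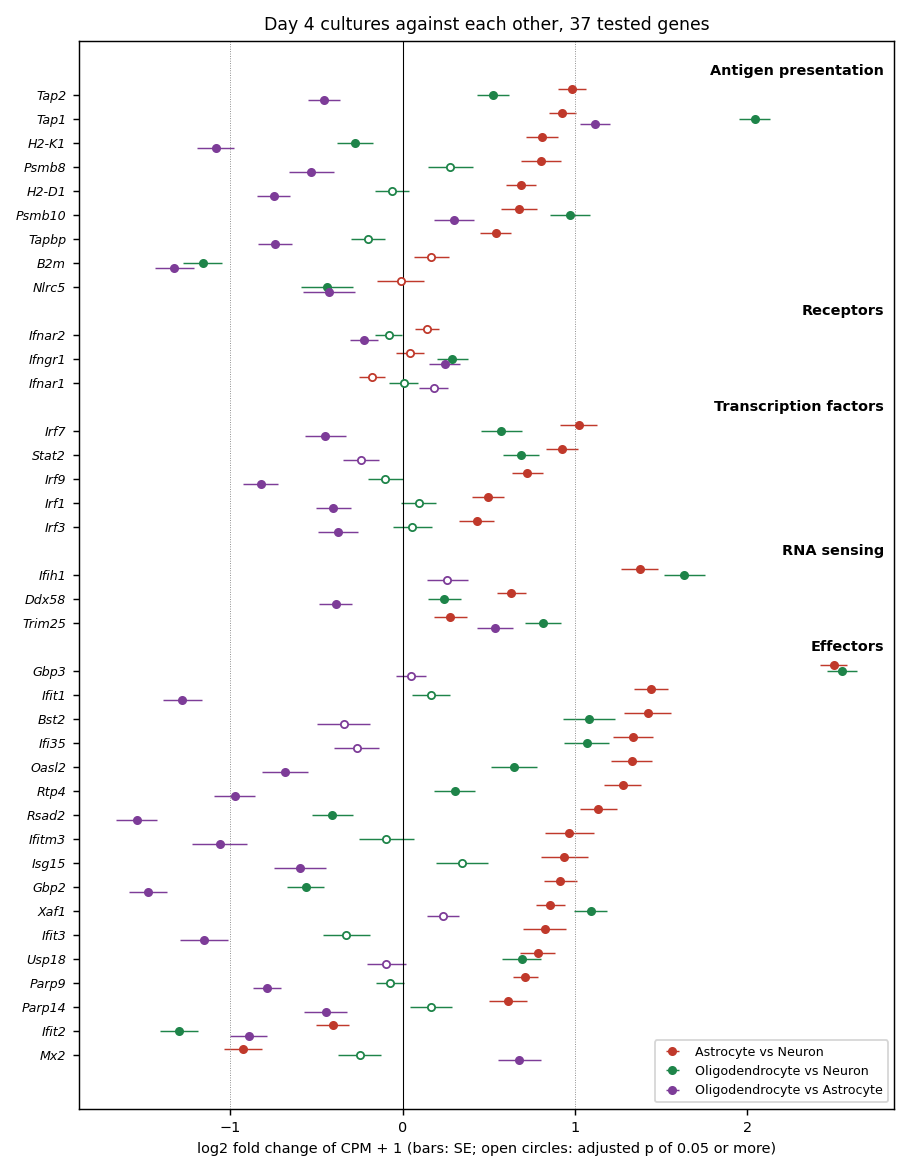
Log2 fold change of CPM + 1 (x axis) between the day 4 groups for the same 37 genes: Astrocyte vs Neuron (red), Oligodendrocyte vs Neuron (green) and Oligodendrocyte vs Astrocyte (purple); bars are standard errors and open circles were not called. Red points lie mostly right of 0 and purple points mostly left of it, and Gbp3 and Tap1 have the values of Oligodendrocyte vs Neuron above 2.

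Heavy chains and light chain of class I did not move together. H2-K1 (ENSMUSG00000061232, chr17:34132962-34137278, minus strand, coordinates of genes here and below in mm9) encodes a classical heavy chain. It stood at 45.9, 46.8 and 53.6 CPM in NSC, 67.6, 65.3 and 77.3 in Astrocyte, 36.0, 44.8 and 37.9 in Neuron, and 34.3 and 30.7 in Oligodendrocyte. All Astrocyte libraries were above all NSC libraries, and all libraries of the other day 4 groups were below them. The log2 fold change against NSC was 0.51 (SE 0.09, adjusted p = 1.8e-04) in Astrocyte, -0.30 (SE 0.09, adjusted p = 0.01) in Neuron and -0.57 (SE 0.11, adjusted p = 2.1e-04) in Oligodendrocyte. The fall in Neuron was not called without NSC replicate 3 (-0.23, adjusted p = 0.055) or under quantile normalization.

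H2-D1 (ENSMUSG00000073411, chr17:35399675-35404444, plus strand), the other classical heavy chain gene of this strain, rose in every medium. It was measured at 14.2, 13.8 and 15.1 CPM in NSC, 40.5, 43.3 and 45.0 in Astrocyte, 23.6, 30.6 and 25.2 in Neuron, and 25.6 and 24.6 in Oligodendrocyte. No day 4 library overlapped the NSC libraries, and the Neuron and Oligodendrocyte libraries overlapped each other. Its log2 fold change was 1.51 (SE 0.09, adjusted p = 1.3e-09) in Astrocyte, 0.83 (SE 0.09, adjusted p = 8.3e-07) in Neuron and 0.77 (SE 0.10, adjusted p = 6.5e-06) in Oligodendrocyte. H2-K1 and H2-D1 are close in sequence to each other and to further class I genes, so the division of reads between them is uncertain.

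B2m (ENSMUSG00000060802, chr2:121973422-121978819, plus strand) encodes the light chain that every class I molecule needs. Its libraries were at 52.7, 53.2 and 55.8 CPM in NSC, 112, 119 and 109.5 in Astrocyte, 87.1, 125 and 95.4 in Neuron, and 45.8 and 43.8 in Oligodendrocyte. Astrocyte and Neuron lay above NSC, and both Oligodendrocyte libraries lay below it. The log2 fold change was 1.06 (SE 0.10, adjusted p = 2.8e-07) in Astrocyte and 0.90 (SE 0.10, adjusted p = 1.7e-06) in Neuron. In Oligodendrocyte it was -0.26 (SE 0.11, adjusted p = 0.047), a call that was lost when any of 9 of the 11 libraries was left out (adjusted p 0.053 to 0.18). Oligodendrocyte against Neuron gave -1.16 (SE 0.11, adjusted p = 1.1e-06). H2-D1 and B2m thus differed in Oligodendrocyte, where H2-D1 was higher than in NSC and B2m was not.

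The subunits of the peptide transporter had different orders over the media. Tap1 (ENSMUSG00000037321, chr17:34324498-34334170, plus strand) was at 8.29, 9.31 and 8.78 CPM in NSC, 12.2, 13.3 and 11.7 in Astrocyte, 6.21, 5.71 and 6.18 in Neuron, and 26.5 and 29.6 in Oligodendrocyte. The Oligodendrocyte libraries were above all others and the Neuron libraries below all others. Tap1 changed against NSC by 1.57 (SE 0.09, adjusted p = 1.5e-09) in Oligodendrocyte, by 0.45 (SE 0.08, adjusted p = 1.3e-04) in Astrocyte and by -0.48 (SE 0.08, adjusted p = 8.1e-05) in Neuron, in log2 units. The rise in Astrocyte was not called under quantile normalization (adjusted p = 0.13). Tap2 (ENSMUSG00000024339, chr17:34340472-34353266, plus strand), its partner subunit, was at 5.34, 5.68 and 5.66 CPM in NSC, 26.2, 26.2 and 29.2 in Astrocyte, 12.1, 14.6 and 13.1 in Neuron, and 20.7 and 18.4 in Oligodendrocyte. Here Astrocyte was highest and NSC lowest, with no overlap between any groups. The log2 change of Tap2 was 2.10 (SE 0.08, adjusted p = 2.4e-11) in Astrocyte, 1.12 (SE 0.08, adjusted p = 2.1e-08) in Neuron and 1.65 (SE 0.09, adjusted p = 1.4e-09) in Oligodendrocyte. Oligodendrocyte vs Astrocyte was 1.12 (SE 0.09, adjusted p = 3.1e-07) for Tap1 and -0.46 (SE 0.09, adjusted p = 0.0011) for Tap2, of opposite sign.

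Tapbp (ENSMUSG00000024308, chr17:34052844-34066235, plus strand), which encodes tapasin, the protein that holds empty class I molecules at the transporter, stood at 12.2, 13.7 and 14.2 CPM in NSC, 73.6, 77.0 and 81.7 in Astrocyte, 46.2, 59.7 and 53.6 in Neuron, and 45.8 and 46.0 in Oligodendrocyte. Every day 4 library was at least 45.8 CPM and every NSC library at most 14.2 CPM. The log2 fold change was 2.45 (SE 0.09, adjusted p = 8.4e-12) in Astrocyte, 1.91 (SE 0.09, adjusted p = 1.2e-10) in Neuron and 1.71 (SE 0.10, adjusted p = 1.6e-09) in Oligodendrocyte. Its interval overlaps Zbtb22 on the same strand over 3421 of 13392 bases, so reads there cannot be assigned with certainty.

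The proteasome subunits that interferon induces, which replace standard subunits and alter the peptides cut, differed from each other. Psmb8 ranged from 1.19 to 4.68 CPM and rose in all 3 media, by 1.21, 0.40 and 0.68 log2 units in Astrocyte, Neuron and Oligodendrocyte. Under quantile normalization the Neuron value turned to -0.07 and was not called, and the Oligodendrocyte rise was not called. Psmb10 ranged from 4.22 to 10.6 CPM, fell in Neuron by 0.49 log2 units (SE 0.10, adjusted p = 6.4e-04) and rose in Oligodendrocyte by 0.48 (SE 0.12, adjusted p = 0.0018), a rise not called under quantile normalization. In Astrocyte its log2 fold change was 0.18 (SE 0.10, adjusted p = 0.12). Its call as higher in Oligodendrocyte than in Astrocyte, 0.30 (SE 0.12, adjusted p = 0.047), was lost when any of 8 of the 11 libraries was left out (adjusted p 0.058 to 0.21) and under both other scalings. Psmb9 is listed at 0 in all libraries under both entries, which share 5765 of their 5766 and 5777 bases on the same strand, and no level is read from it. Nlrc5, the transactivator of class I genes, was between 0.20 and 0.40 CPM in NSC and between 2.90 and 5.69 CPM at day 4. It changed by 2.13 (SE 0.13, adjusted p = 3.3e-09), 2.15 (SE 0.13, adjusted p = 3.3e-09) and 1.71 (SE 0.15, adjusted p = 1.4e-07) log2 units in Astrocyte, Neuron and Oligodendrocyte. Its lower level in Oligodendrocyte than in Neuron, -0.44 (SE 0.15, adjusted p = 0.02), was not called without Neuron replicate 1 or without Oligodendrocyte replicate 2 (adjusted p up to 0.16), and that against Astrocyte not without Astrocyte replicate 1, Astrocyte replicate 2 or Oligodendrocyte replicate 2 (adjusted p up to 0.21). In all, 8 of 9 tested presentation genes rose (88.9%) in Astrocyte. In Neuron 6 rose (66.7%) and 3 fell (33.3%), and in Oligodendrocyte 7 rose (77.8%) and 2 fell (22.2%). Of all genes, 48.0%, 43.5% and 48.1% rose and 35.6%, 39.6% and 32.2% fell in these media.

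**Figure D3:**
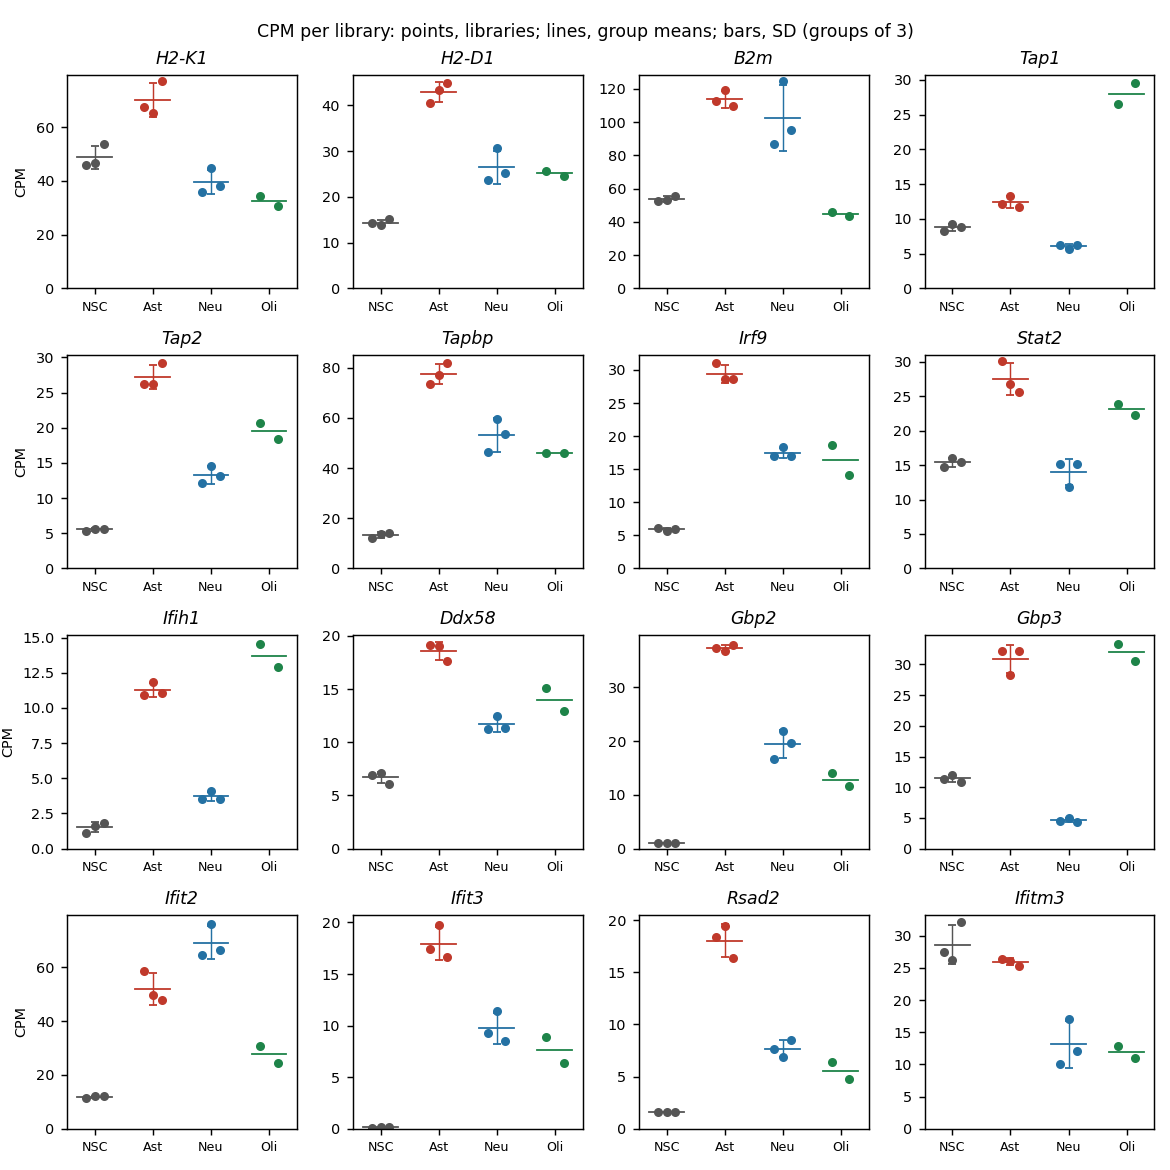
CPM in each library (points) for 16 of the genes, with group means (lines) and SD for groups of 3 (bars); NSC is day 0, and Ast, Neu and Oli are the Astrocyte, Neuron and Oligodendrocyte media at day 4. Tap1 and Gbp3 have their lowest points in Neuron, B2m and H2-K1 in Oligodendrocyte, and Gbp2, Ifit3, Rsad2 and Irf9 in NSC.

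The receptors changed little, except Ifngr1. Ifnar1 (ENSMUSG00000022967, chr16:91485483-91507686, plus strand), a chain of the type I receptor, was at 65.6, 65.9 and 68.5 CPM in NSC, 60.4, 60.01 and 53.7 in Astrocyte, 66.8, 58.8 and 71.7 in Neuron, and 68.0 and 63.8 in Oligodendrocyte. These values overlapped between Neuron and each of the other groups. Its only call against NSC was in Astrocyte, -0.20 (SE 0.07, adjusted p = 0.025) in log2 units, lost without NSC replicate 3 or without Astrocyte replicate 3 (adjusted p 0.073 to 0.11). Ifnar2 (ENSMUSG00000022971, chr16:91373028-91405834, plus strand), the other chain, was at 11.8, 10.6 and 11.4 CPM in NSC, 10.2, 10.8 and 10.5 in Astrocyte, 9.46, 8.98 and 9.90 in Neuron, and 8.82 and 8.93 in Oligodendrocyte. It fell slightly in Neuron, -0.23 (SE 0.07, adjusted p = 0.0087), and in Oligodendrocyte, -0.31 (SE 0.08, adjusted p = 0.0028), and in Astrocyte had -0.09 (SE 0.07, adjusted p = 0.26). Under median-of-ratios scaling, Ifnar2 in Astrocyte (-0.23, adjusted p = 0.0069) and Ifnar1 in Oligodendrocyte (-0.21, adjusted p = 0.014) were called lower too. The interferon gamma receptor chain Ifngr1 (ENSMUSG00000020009, chr10:19311755-19330035, plus strand) was at 18.0, 19.6 and 20.5 CPM in NSC, 31.9, 32.2 and 31.8 in Astrocyte, 28.0, 34.8 and 30.4 in Neuron, and 36.2 and 40.0 in Oligodendrocyte. All day 4 libraries were above all NSC libraries. Its log2 rise was 0.70 (SE 0.08, adjusted p = 2.3e-06) in Astrocyte, 0.65 (SE 0.08, adjusted p = 4.7e-06) in Neuron and 0.94 (SE 0.09, adjusted p = 3.9e-07) in Oligodendrocyte. Its place as highest in Oligodendrocyte was not firm. The difference from Neuron was lost without Oligodendrocyte replicate 2 (adjusted p = 0.13), that from Astrocyte was lost without any of 5 libraries (adjusted p up to 0.27), and both were lost under median-of-ratios scaling and quantile normalization.

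All 5 transcription factors rose in Astrocyte, where 48.0% of all genes rose. Irf9 (ENSMUSG00000002325, chr14:56222408-56228867, plus strand), the DNA-binding part of the complex that binds ISRE, was at 6.06, 5.66 and 5.96 CPM in NSC, 31.0, 28.6 and 28.7 in Astrocyte, 16.96, 18.3 and 16.98 in Neuron, and 18.6 and 14.1 in Oligodendrocyte. The Astrocyte libraries stood above all other libraries and the NSC libraries below them. Irf9 rose by 2.14 (SE 0.09, adjusted p = 5.0e-11) log2 units in Astrocyte, 1.42 (SE 0.09, adjusted p = 4.4e-09) in Neuron and 1.32 (SE 0.10, adjusted p = 3.7e-08) in Oligodendrocyte. Its interval shares 123 bases with Rnf31 on the same strand. Stat2 (ENSMUSG00000040033, chr10:127707629-127729905, plus strand), which joins Irf9 in that complex, was at 14.8, 16.0 and 15.4 CPM in NSC, 30.1, 26.8 and 25.6 in Astrocyte, 15.1, 11.9 and 15.1 in Neuron, and 23.9 and 22.3 in Oligodendrocyte. It was higher in Astrocyte and Oligodendrocyte than in NSC, while Neuron overlapped NSC. The log2 fold changes were 0.80 (SE 0.09, adjusted p = 2.7e-06) in Astrocyte, 0.56 (SE 0.11, adjusted p = 2.6e-04) in Oligodendrocyte and -0.13 (SE 0.09, adjusted p = 0.21) in Neuron.

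Irf3 (ENSMUSG00000003184, chr7:52253018-52258218, plus strand), which is activated by phosphorylation downstream of nucleic acid sensors, was at 24.0, 23.6 and 28.4 CPM in NSC, 35.0, 30.8 and 34.3 in Astrocyte, 24.8, 24.8 and 23.8 in Neuron, and 29.5 and 21.9 in Oligodendrocyte. Only the Astrocyte libraries lay apart from those of NSC. Irf3 changed by 0.39 (SE 0.10, adjusted p = 0.0031) in Astrocyte, with -0.04 (SE 0.10, adjusted p = 0.7) in Neuron and 0.01 (SE 0.11, adjusted p = 0.92) in Oligodendrocyte. It overlaps Bcl2l12 on the opposite strand over 1065 bases. The lower level in Oligodendrocyte than in Astrocyte was not called without Oligodendrocyte replicate 2 (adjusted p = 0.28). Irf7, the amplifier of type I interferon production, was at most 0.19 CPM in NSC and reached 1.84 to 2.77 CPM in Astrocyte, 0.58 to 0.68 in Neuron and 1.32 to 1.55 in Oligodendrocyte. Irf1, a factor acting early after interferon gamma, ranged from 6.97 to 14.0 CPM and rose by 0.77, 0.28 and 0.37 log2 units in Astrocyte, Neuron and Oligodendrocyte. The last pair of calls is weak: that in Neuron was lost without NSC replicate 1 (adjusted p = 0.054) and that in Oligodendrocyte without Oligodendrocyte replicate 1 (adjusted p = 0.096) and under median-of-ratios scaling, and both were lost under quantile normalization. The Irf7 call in Neuron was also lost under quantile normalization (adjusted p = 0.2).

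Of the sensors of viral RNA in the cytoplasm, Ifih1 and Ddx58 rose in each medium, while Dhx58 was too low to be tested. Ifih1 (ENSMUSG00000026896, chr2:62433855-62484312, minus strand) encodes MDA5, a sensor of long double-stranded RNA. It was at 1.11, 1.62 and 1.84 CPM in NSC, 10.9, 11.8 and 11.1 in Astrocyte, 3.55, 4.11 and 3.56 in Neuron, and 14.53 and 12.9 in Oligodendrocyte. Astrocyte and Oligodendrocyte libraries were all above 10 CPM, and Neuron libraries were at 4.11 CPM or less. Ifih1 rose by 2.29 (SE 0.11, adjusted p = 1.5e-10) log2 units in Astrocyte, 0.92 (SE 0.11, adjusted p = 2.6e-06) in Neuron and 2.55 (SE 0.12, adjusted p = 2.1e-10) in Oligodendrocyte. Oligodendrocyte exceeded Neuron by 1.64 (SE 0.12, adjusted p = 7.8e-08). Ddx58 (ENSMUSG00000040296, chr4:40150806-40186861, minus strand), which encodes RIG-I, a sensor of RNA with a 5′ triphosphate, was at 6.91, 7.08 and 6.10 CPM in NSC, 19.1, 19 and 17.6 in Astrocyte, 11.2, 12.4 and 11.3 in Neuron, and 15.1 and 12.9 in Oligodendrocyte. The day 4 libraries were all above those of NSC. Its log2 rise was 1.35 (SE 0.08, adjusted p = 3.0e-09) in Astrocyte, 0.72 (SE 0.08, adjusted p = 2.5e-06) in Neuron and 0.96 (SE 0.09, adjusted p = 4.5e-07) in Oligodendrocyte. For Ddx58 the Oligodendrocyte to Neuron difference was only 0.24 (SE 0.09, adjusted p = 0.036), and was lost when Neuron replicate 1, Neuron replicate 3 or Oligodendrocyte replicate 1 was left out (adjusted p up to 0.33) and under both other scalings. Trim25, a ubiquitin ligase that acts on RIG-I, ranged from 5.22 to 11.8 CPM and rose in Oligodendrocyte, by 0.70 (SE 0.10, adjusted p = 3.2e-05). Its Astrocyte value, 0.16 (SE 0.09, adjusted p = 0.13), became -0.24 and was called lower under quantile normalization. Dhx58, which encodes LGP2, did not share the rise. It was at 0.54 to 0.66 CPM in NSC, 0.47 to 0.73 in Astrocyte, 0.24 to 0.28 in Neuron, and 0.45 and 0.84 in Oligodendrocyte.

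The largest changes of all were among the effectors. Gbp2 (ENSMUSG00000028270, chr3:142283566-142300972, plus strand) encodes a guanylate-binding protein that acts against intracellular pathogens. It stood at 1.03, 1.10 and 1.03 CPM in NSC, 37.3, 36.7 and 37.9 in Astrocyte, 16.7, 21.9 and 19.6 in Neuron, and 14.1 and 11.6 in Oligodendrocyte. The groups did not overlap, with Astrocyte above Neuron, Neuron above Oligodendrocyte and NSC lowest. Gbp2 rose by 4.22 (SE 0.10, adjusted p = 1.3e-13) log2 units in Astrocyte, 3.31 (SE 0.10, adjusted p = 1.3e-12) in Neuron and 2.74 (SE 0.11, adjusted p = 3.3e-11) in Oligodendrocyte. Gbp3 (ENSMUSG00000028268, chr3:142223016-142236173, plus strand), its neighbour in the same gene cluster, took another course, at 11.3, 12.1 and 10.9 CPM in NSC, 32.2, 28.3 and 32.2 in Astrocyte, 4.53, 5.00 and 4.38 in Neuron, and 33.4 and 30.6 in Oligodendrocyte. Astrocyte and Oligodendrocyte overlapped each other far above NSC, and all Neuron libraries were below NSC. The log2 fold change of Gbp3 was 1.36 (SE 0.08, adjusted p = 1.4e-09) in Astrocyte, -1.14 (SE 0.08, adjusted p = 1.0e-08) in Neuron and 1.41 (SE 0.09, adjusted p = 4.2e-09) in Oligodendrocyte. Oligodendrocyte vs Neuron was 2.55 (SE 0.09, adjusted p = 9.3e-11) for Gbp3 and -0.56 (SE 0.11, adjusted p = 4.7e-04) for Gbp2. Reads shared among similar Gbp genes are uncertain in their assignment.

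The Ifit genes encode proteins that bind foreign RNA and block its translation. Ifit3 (ENSMUSG00000074896, chr19:34658021-34663221, plus strand) was at 0.1, 0.16 and 0.2 CPM in NSC, 17.4, 19.7 and 16.7 in Astrocyte, 9.31, 11.4 and 8.5 in Neuron, and 8.86 and 6.36 in Oligodendrocyte. It was near 0 in NSC and above 6 CPM in every day 4 library. The log2 rise was 4.04 (SE 0.12, adjusted p = 1.7e-12) in Astrocyte, 3.21 (SE 0.12, adjusted p = 1.9e-11) in Neuron and 2.89 (SE 0.14, adjusted p = 2.3e-10) in Oligodendrocyte. A further entry whose identifier carries the symbol Ifit3b in the annotation, and which was picked after its values were seen, was at 0.03, 0 and 0 CPM in NSC, 17.9, 18.2 and 16.2 in Astrocyte, 10.1, 10.2 and 10.6 in Neuron, and 9.41 and 6.78 in Oligodendrocyte. Ifit3 and Ifit3b are near copies of each other, so the division of their reads is uncertain. Ifit1 (ENSMUSG00000034459, chr19:34715361-34724499, plus strand) was at 0.2, 0.3 and 0.22 CPM in NSC, 6.37, 6.24 and 5.64 in Astrocyte, 1.26, 1.65 and 1.95 in Neuron, and 1.95 and 1.89 in Oligodendrocyte. Its Astrocyte libraries were above all others. Ifit1 rose by 2.51 (SE 0.10, adjusted p = 2.7e-11) in Astrocyte, 1.07 (SE 0.10, adjusted p = 2.5e-07) in Neuron and 1.24 (SE 0.11, adjusted p = 2.1e-07) in Oligodendrocyte.

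Ifit2 (ENSMUSG00000045932, chr19:34625184-34650909, plus strand), whose protein binds AU-rich RNA, differed from its relatives in its order, with 11.6, 12.2 and 12.01 CPM in NSC, 58.8, 49.7 and 47.7 in Astrocyte, 64.7, 76.3 and 66.6 in Neuron, and 30.8 and 24.5 in Oligodendrocyte. The Neuron libraries were above all others, and NSC was lowest. Ifit2 rose by 2.03 (SE 0.10, adjusted p = 1.8e-10) in Astrocyte, 2.44 (SE 0.10, adjusted p = 3.0e-11) in Neuron and 1.14 (SE 0.11, adjusted p = 3.4e-07) in Oligodendrocyte, in log2 units. Astrocyte vs Neuron was -0.41 (SE 0.10, adjusted p = 0.0026), where Ifit1 had 1.44 (SE 0.10, adjusted p = 5.2e-08) and Ifit3 0.82 (SE 0.12, adjusted p = 6.1e-05). Neither of its 2 promoter windows held the ISRE-like core.

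Rsad2 (ENSMUSG00000020641, chr12:27127618-27141317, minus strand) encodes viperin, an enzyme that makes a chain-terminating nucleotide. It was at 1.59, 1.64 and 1.60 CPM in NSC, 18.4, 19.4 and 16.4 in Astrocyte, 7.63, 6.87 and 8.53 in Neuron, and 6.43 and 4.73 in Oligodendrocyte. All day 4 libraries were above NSC, and all Astrocyte libraries above the other day 4 libraries. The log2 rise was 2.86 (SE 0.11, adjusted p = 1.4e-11) in Astrocyte, 1.73 (SE 0.11, adjusted p = 3.2e-09) in Neuron and 1.32 (SE 0.12, adjusted p = 2.1e-07) in Oligodendrocyte. Oasl2 (ENSMUSG00000029561, chr5:115346943-115362243, plus strand), a relative of the oligoadenylate synthetases, was at 0.2, 0.37 and 0.42 CPM in NSC, 6.19, 6.17 and 6.09 in Astrocyte, 1.85, 1.95 and 1.74 in Neuron, and 4.36 and 2.71 in Oligodendrocyte. Its Astrocyte libraries were highest, without overlap. Oasl2 rose by 2.43 (SE 0.12, adjusted p = 2.4e-10) in Astrocyte, 1.10 (SE 0.12, adjusted p = 1.2e-06) in Neuron and 1.75 (SE 0.13, adjusted p = 3.4e-08) in Oligodendrocyte. The synthetase gene Oas1a was listed at 0.02 CPM in 2 libraries and at 0 in the other 9, and was not tested.

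Parp14 (ENSMUSG00000034422, chr16:35832960-35871630, minus strand) and Parp9 (ENSMUSG00000022906, chr16:35938556-35972691, plus strand) encode ADP-ribosyltransferase family proteins. Parp14 was at 1.72, 2.20 and 1.68 CPM in NSC, 13.0, 12.5 and 11.5 in Astrocyte, 8.69, 6.46 and 8.20 in Neuron, and 9.44 and 8.17 in Oligodendrocyte. Parp9 was at 6.89, 6.43 and 6.57 CPM in NSC, 22.7, 23.9 and 23.9 in Astrocyte, 13.1, 14.4 and 14.52 in Neuron, and 13.8 and 12.7 in Oligodendrocyte. Both had their lowest libraries in NSC and their highest in Astrocyte. In log2 units Parp14 rose by 2.22 (SE 0.11, adjusted p = 2.7e-10), 1.61 (SE 0.11, adjusted p = 9.2e-09) and 1.78 (SE 0.12, adjusted p = 1.3e-08) in Astrocyte, Neuron and Oligodendrocyte. Parp9 rose by 1.68 (SE 0.07, adjusted p = 4.7e-11), 0.97 (SE 0.07, adjusted p = 1.8e-08) and 0.90 (SE 0.08, adjusted p = 1.6e-07). Parp9 overlaps Dtx3l, the gene of its partner protein, over 682 bases on the opposite strand.

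Mx2 (ENSMUSG00000023341, chr16:97757690-97782506, plus strand), an antiviral GTPase gene known to be defective in many laboratory mouse strains, was at 0.73, 0.71 and 0.57 CPM in NSC, 2.69, 1.93 and 2.03 in Astrocyte, 5.60, 4.26 and 5.48 in Neuron, and 4.14 and 4.10 in Oligodendrocyte. It was higher in Neuron and Oligodendrocyte than in Astrocyte and lowest in NSC. Mx2 rose by 0.94 (SE 0.11, adjusted p = 2.8e-06) in Astrocyte, 1.87 (SE 0.11, adjusted p = 2.0e-09) in Neuron and 1.62 (SE 0.12, adjusted p = 3.7e-08) in Oligodendrocyte. Mx1, likewise defective in most such strains, was too low to be tested. It was at most 0.05 CPM in NSC, 0.14 to 0.44 in Astrocyte, 0.07 to 0.14 in Neuron and 0.82 and 0.95 in Oligodendrocyte.

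Membrane restriction factors went the other way in Neuron medium. Ifitm3 (ENSMUSG00000025492, chr7:148195485-148196669, minus strand), which blocks the entry of viruses through endosomes, was at 27.5, 26.3 and 32.1 CPM in NSC, 26.5, 26.1 and 25.3 in Astrocyte, 10.1, 17.1 and 12.1 in Neuron, and 12.9 and 11.04 in Oligodendrocyte. Astrocyte overlapped NSC, and the other day 4 groups lay below both. Its log2 fold change was -0.13 (SE 0.14, adjusted p = 0.4) in Astrocyte, -1.10 (SE 0.14, adjusted p = 6.9e-06) in Neuron and -1.19 (SE 0.16, adjusted p = 1.0e-05) in Oligodendrocyte, the largest falls of the 37 genes in Oligodendrocyte and, after Gbp3, in Neuron. Bst2 (ENSMUSG00000046718, chr8:74058163-74061336, minus strand), which encodes tetherin, a protein that holds budding viruses at the cell surface, was at 3.29, 3.21 and 3.79 CPM in NSC, 4.68, 4.81 and 5.74 in Astrocyte, 0.77, 1.58 and 1.53 in Neuron, and 4.16 and 3.44 in Oligodendrocyte. All Neuron libraries were below all others. Bst2 fell in Neuron by -0.97 (SE 0.14, adjusted p = 1.6e-05) and rose in Astrocyte by 0.45 (SE 0.14, adjusted p = 0.0073). Under quantile normalization the Astrocyte value was -0.09 and not called. In Oligodendrocyte it was 0.11 (SE 0.15, adjusted p = 0.5), which became -0.46 and was called lower under quantile normalization.

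The remaining effectors stayed under 5 CPM. Isg15, a ubiquitin-like modifier, ranged from 0.13 to 2.68 CPM and rose by 1.30 in Astrocyte, 0.36 in Neuron and 0.70 in Oligodendrocyte on the log2 scale. The Neuron rise was lost without NSC replicate 2, NSC replicate 3 or Neuron replicate 1 (adjusted p 0.069 to 0.081), and was -0.07 under quantile normalization, where the Oligodendrocyte rise was not called either (0.12, adjusted p = 0.48). Usp18, the protease that removes Isg15, ranged from 0.15 to 1.60 CPM and rose by 1.00 in Astrocyte and 0.91 in Oligodendrocyte. Ifi35 (0.51 to 3.98 CPM) and Xaf1 (0.21 to 1.90 CPM) likewise rose in these 2 media, by 1.58 and 1.31 and by 0.79 and 1.02. For Neuron, Usp18 had 0.21 (SE 0.10, adjusted p = 0.062), Ifi35 had 0.25 (SE 0.12, adjusted p = 0.065) and Xaf1 had -0.07 (SE 0.08, adjusted p = 0.45). Under quantile normalization the Xaf1 rise in Astrocyte was not called (0.13, adjusted p = 0.14), and its Neuron value became -0.51 and was called lower (adjusted p = 3.9e-05). The Usp18 and Ifi35 values were called higher without NSC replicate 3 or without Neuron replicate 3 (lowest adjusted p 0.011 and 0.028). Rtp4 (0.62 to 4.79 CPM), which was first described as a receptor-transporting protein, rose by 1.74, 0.46 and 0.76. Under quantile normalization its Neuron value was -0.03 and its Oligodendrocyte rise was not called (0.10, adjusted p = 0.43). Of the 17 effectors tested, 16 rose (94.1%) in Astrocyte. In Neuron 11 rose (64.7%) and 3 fell (17.6%), and in Oligodendrocyte 15 rose (88.2%) and 1 fell (5.88%). Of all genes, 48.0%, 43.5% and 48.1% rose and 35.6%, 39.6% and 32.2% fell in these media. Effectors under 1 CPM in every NSC library, such as Ifit3 and Oasl2, entered the test only through their day 4 values.

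A wider list of 104 pathway genes, written with earlier results of these data known, gave the setting. Of 102 found, 59 were tested. Against NSC, 40 rose (67.8%) and 9 fell (15.3%) in Astrocyte, where 48.0% of all genes rose and 35.6% fell. In Neuron 32 rose (54.2%) and 14 fell (23.7%), against 43.5% and 39.6%, and in Oligodendrocyte 34 rose (57.6%) and 11 fell (18.6%), against 48.1% and 32.2%. Some of these genes, such as Ikbke, Irgm2 and Igtp, averaged under 1 CPM in NSC and entered the test only through day 4 values. Part of the rises, here and in the single lists below, is built into that choice. The median log2 fold changes of the 59 were 0.66, 0.38 and 0.44, beside 0.15, 0.06 and 0.19 for all genes. They were 0.56, 0.36 and 0.25 under median of ratios and 0.45, 0.20 and 0.08 under quantile normalization, so the Oligodendrocyte median in particular depended on scaling. No interferon gene was tested. Of 18 interferon genes found, 17 are listed at 0 in all libraries and the highest value was 0.02 CPM, in Ifnab. This concerns RNA in these cultures at the sampled times and says nothing about earlier times or protein.

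The signalling list had 19 tested genes, of which 12 rose (63.2%) and 3 fell in Astrocyte, 10 (52.6%) and 3 in Neuron, and 11 (57.9%) and 4 in Oligodendrocyte, beside rises of 48.0%, 43.5% and 48.1% of all genes. Tlr3, the endosomal receptor for double-stranded RNA, was at 8.43 ± 0.386 CPM in NSC, 67.7 ± 3.58 in Astrocyte, 38.9 ± 0.348 in Neuron and 46.5 ± 2.97 in Oligodendrocyte (SD, n = 3 and n = 2 for Oligodendrocyte, here and below). It rose by 2.87 (SE 0.06, adjusted p = 1.1e-13) log2 units in Astrocyte. Ikbke, a kinase that phosphorylates Irf3 and Irf7, was at 0.463 ± 0.125 CPM in NSC, 7.15 ± 0.551 in Astrocyte, 1.92 ± 0.16 in Neuron and 1.30 ± 0.332 in Oligodendrocyte, and Astrocyte exceeded Neuron by 1.48 (SE 0.10, adjusted p = 5.2e-08). Tmem173, which encodes STING, was at 12.8 ± 0.258 CPM in NSC, 1.00 ± 0.135 in Astrocyte, 0.867 ± 0.182 in Neuron and 0.65 ± 0.184 in Oligodendrocyte, and changed by -2.79 (SE 0.10, adjusted p = 6.3e-12) log2 units in Astrocyte, -2.89 (SE 0.10, adjusted p = 5.0e-12) in Neuron and -3.07 (SE 0.11, adjusted p = 1.1e-11) in Oligodendrocyte. The entry E330016A19Rik, whose identifier carries the symbol Cgas in the annotation used for names, encodes the DNA sensor upstream of STING. It was at 11.3 ± 0.902 CPM in NSC, 1.2 ± 0.248 in Astrocyte, 1.27 ± 0.504 in Neuron and 2.35 ± 0.262 in Oligodendrocyte, and changed by -2.48 (SE 0.14, adjusted p = 1.1e-09), -2.45 (SE 0.14, adjusted p = 1.4e-09) and -1.87 (SE 0.16, adjusted p = 9.6e-08) in the same order. In all 3 media the RNA sensor genes Ifih1, Ddx58 and Tlr3 thus rose, while Cgas and Tmem173 fell. Tlr3, Cgas and Tmem173 are named for the size of their change, so no contrast of RNA and DNA sensing is drawn. The RNA sensing genes Trim25 and Dhx58 did not share the rise in all 3 media. Trim25 was not called in Astrocyte (0.16, adjusted p = 0.13) or Neuron (-0.12, adjusted p = 0.24). Dhx58, which was not tested, averaged 0.59 CPM in NSC and 0.26 in Neuron.

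**Figure D4:**
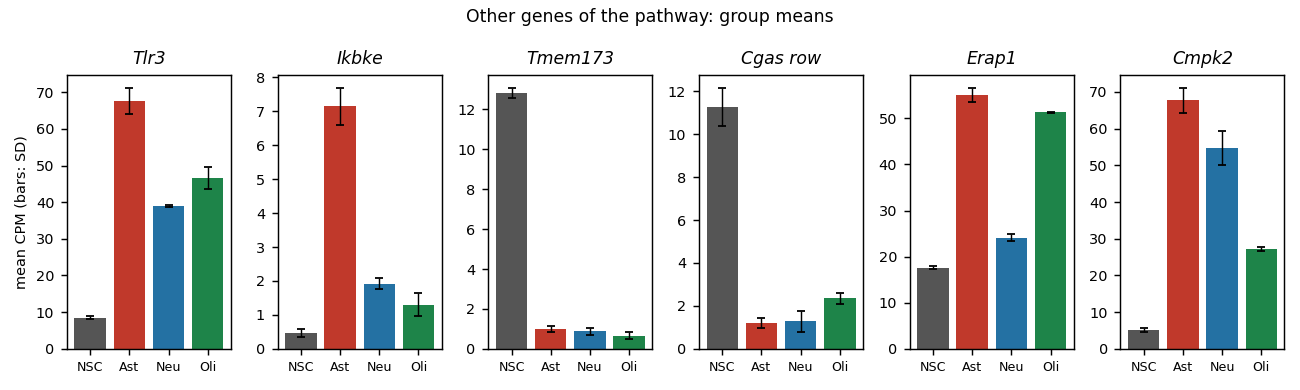
Mean CPM with SD (bars) of 6 other genes of the pathway in the 4 groups (NSC day 0; Ast, Neu and Oli media at day 4; the Oligodendrocyte group has 2 libraries). Tmem173 and the Cgas row (entry E330016A19Rik) are highest in NSC, and the other 4 genes are lowest there.

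In the presentation list, 11 genes were tested, and 6 rose (54.5%) and 1 fell in Astrocyte, 4 (36.4%) and 3 in Neuron, and 3 (27.3%) and 2 in Oligodendrocyte. The share that rose was near that of all genes in Astrocyte (48.0%) and below it in Neuron (43.5%) and Oligodendrocyte (48.1%). Erap1, the peptidase that trims peptides for class I, was at 17.6 ± 0.264 CPM in NSC, 55.1 ± 1.61 in Astrocyte, 24.1 ± 0.803 in Neuron and 51.3 ± 0.0212 in Oligodendrocyte. It was higher than in Neuron by 1.16 (SE 0.06, adjusted p = 1.9e-09) log2 units in Astrocyte and 1.06 (SE 0.06, adjusted p = 9.7e-09) in Oligodendrocyte. Tapbpl, a relative of tapasin, was at 2.77 ± 0.127 CPM in NSC, 7.70 ± 1.02 in Astrocyte, 4.79 ± 0.78 in Neuron and 6.36 ± 0.29 in Oligodendrocyte. Psme1, a subunit of the proteasome activator PA28, was at 22.6 ± 1.46 CPM in NSC, 47.4 ± 5.47 in Astrocyte, 47.0 ± 5.91 in Neuron and 25.9 ± 0.431 in Oligodendrocyte, and like B2m was lower in Oligodendrocyte than in Neuron, by -0.83 (SE 0.11, adjusted p = 1.6e-05). Pdia3, a chaperone of class I assembly and of other glycoproteins, was at 409.7 ± 12.6 CPM in NSC, 374 ± 28.7 in Astrocyte, 260.5 ± 24.0 in Neuron and 449 ± 14.3 in Oligodendrocyte, and it fell in Neuron by -0.65 (SE 0.08, adjusted p = 2.3e-06). The effector list had 29 tested genes, with 22 rises (75.9%) and 5 falls in Astrocyte, 18 (62.1%) and 8 in Neuron, and 20 (69%) and 5 in Oligodendrocyte, beside rises of 48.0%, 43.5% and 48.1% of all genes. Cmpk2, a nucleotide kinase gene beside Rsad2, was at 5.15 ± 0.601 CPM in NSC, 67.7 ± 3.49 in Astrocyte, 54.7 ± 4.53 in Neuron and 27.1 ± 0.523 in Oligodendrocyte. Irgm2 and Igtp are interferon-inducible GTPases. Irgm2 was at 0.34 ± 0.0954 CPM in NSC, 15.0 ± 0.429 in Astrocyte, 6.88 ± 0.552 in Neuron and 6.62 ± 0.304 in Oligodendrocyte, and Igtp at 0.773 ± 0.126 CPM in NSC, 11.5 ± 1.42 in Astrocyte, 4.61 ± 0.506 in Neuron and 10.3 ± 1.87 in Oligodendrocyte.

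Markers of other cells were read beside these results. Microglia and other myeloid cells express many of the 41 genes, and their 13 markers summed to 1.66 to 2.45 CPM in NSC, 2.01 to 3.26 in Astrocyte, 1.74 to 2.40 in Neuron and 2.69 to 3.01 in Oligodendrocyte. Of these markers 11 were under 1 CPM in every library, among them Ptprc, Aif1, Csf1r, Cx3cr1, Itgam and Tyrobp, at most 0.23 CPM. The others were P2ry12 and Cd68. P2ry12 averaged 0.363 CPM in NSC, 1.09 in Astrocyte, 0.427 in Neuron and 0.955 in Oligodendrocyte. Cd68 was between 0.9 and 2.06 CPM. The 7 endothelial markers summed to 2.37 to 2.50 CPM in NSC, 5.59 to 7.37 in Astrocyte, 1.22 to 2.02 in Neuron and 2.84 to 3.05 in Oligodendrocyte, most of it Kdr, with Cdh5 and Cldn5 at most 0.03 CPM. The 8 mesenchymal and pericyte markers summed to 12.2 to 16.0 CPM in NSC, 83.6 to 93.7 in Astrocyte, 39.7 to 46.3 in Neuron and 20.7 to 21.2 in Oligodendrocyte. That sum was mostly Pdgfrb and Acta2, while Col1a1, Col1a2, Col3a1, Lum and Dcn were at most 0.52 CPM. The 7 astrocyte markers summed to 1533 to 1608 CPM in NSC, 13940 to 15380 in Astrocyte, 8048 to 9082 in Neuron and 3058 to 3440 in Oligodendrocyte. The sums of astrocyte and of mesenchymal and pericyte markers were highest in Astrocyte, then Neuron, Oligodendrocyte and NSC. By their means, Gbp2, H2-D1, Tapbp, Irf9, Ifit3, Rsad2, Parp9 and Nlrc5 had that order too. Other genes did not, such as Tap2, Ddx58, Parp14 and Oasl2, with Oligodendrocyte above Neuron, and Ifit2, highest in Neuron. Single astrocyte markers also differed from their sum, as Slc1a3, Aldoc, S100b and Aldh1l1 were highest in Neuron. The part of these cells in the results was not tested.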

How the data were processed

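RNA of 11 cultures was sequenced as TruSeq Stranded mRNA libraries on an Illumina HiSeq, per the labels' protocols. CPM values of 37991 genes, rounded to 2 decimals, had been deposited by the authors in 1 table on mouse build NCBIM37 (mm9), per the file headers. The submitters' processing notes name bcl2fastq 1.8.4, TopHat2 2.0.8, HTSeq 0.6.1, edgeR 3.2.4, R 3.0.0 and HOMER, without roles. No source used here gives the strand setting of the counting or the annotation release. The listed genes sum to 74.95% to 80.25% of the CPM scale in a library, and depth was estimated from the spacing of low values. Within groups, the median variance between libraries was 3.76 to 12.1 times the counting variance. These medians cannot show whether the libraries of a group came from separate cultures, and each library was kept as a separate sample.

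The 13342 genes that reached 1 CPM in 2 or more libraries were fitted as log2(CPM + 1) with limma 3.58.1 in R 4.3.3 (1 mean per group, all 11 libraries, eBayes with a trend, degrees of freedom 7 residual, 5.96 prior). Each of 6 comparisons used a two-sided moderated test with Benjamini-Hochberg adjustment over all genes. The fit was tested on simulated data. Alternatives changed the pseudocount, filter, scaling, variance model, samples in the fit, replicate block and libraries kept.

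The 41 genes and all lists were chosen with earlier results of these data known. Genes given in full had a group mean of at least 5 CPM and a called 2-fold change in a comparison, or were class I chains, transporter genes, receptors, Irf3, Irf9 or Stat2. Up to 4 genes per pathway list are named, by the largest called change among those with at least 5 CPM in a group. A gene picked by this rule is not reported here. Promoter windows come from RefSeq on GRCm38.p6 and were joined by symbol only. No promoter entry was used for Dhx58, Nlrc5, Mx1, Mx2, Parp9, Parp14, Usp18, Rtp4 and Tap2.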

Additional observations from a re-analysis of the deposited data

Results flagged for a closer look

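Several genes moved in opposite directions in 2 media, each against NSC, and the direct comparison of the media was called. Differences are in log2 units, first medium minus second, with limma's adjusted p for the direct comparison. The changes against NSC share the NSC libraries.

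Gbp3 rose in Astrocyte (1.36) and Oligodendrocyte (1.41) and fell in Neuron (-1.14), a difference of 2.50 for Astrocyte minus Neuron (adjusted p = 5.0e-11) and 2.55 for Oligodendrocyte minus Neuron (adjusted p = 9.3e-11). Tap1 rose in Astrocyte (0.45) and Oligodendrocyte (1.57) and fell in Neuron (-0.48), differences of 0.93 (adjusted p = 3.7e-07) and 2.04 (adjusted p = 6.1e-10). Bst2 rose in Astrocyte (0.45) and fell in Neuron (-0.97), a difference of 1.42 (adjusted p = 1.1e-06). The Astrocyte rises of Tap1 and Bst2 were not called under quantile normalization. Psmb10 rose in Oligodendrocyte (0.48) and fell in Neuron (-0.49), a difference of 0.97 (adjusted p = 7.5e-06).

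H2-K1 rose in Astrocyte (0.51) and fell in Neuron (-0.30) and Oligodendrocyte (-0.57), a difference of 0.81 for Astrocyte minus Neuron (adjusted p = 6.3e-06) and -1.08 for Oligodendrocyte minus Astrocyte (adjusted p = 1.9e-06). The Neuron fall was lost without NSC replicate 3 (adjusted p = 0.055). B2m was lower in Oligodendrocyte (-0.26) and higher in Neuron (0.90) and Astrocyte (1.06), differences of -1.16 (adjusted p = 1.1e-06) and -1.32 (adjusted p = 5.6e-07). Its Oligodendrocyte call was lost without any of 9 of the 11 libraries (adjusted p 0.053 to 0.18), so the opposite direction there rests on a small change, while both direct differences were called.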

How the results depend on the processing

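Most calls of single genes kept their direction and side of the threshold under the settings tried. Directions turned only under quantile normalization, for Trim25 (-0.24) and Bst2 (-0.0893) in Astrocyte vs NSC, Psmb8 (-0.0650), Rtp4 (-0.0336) and Isg15 (-0.0676) in Neuron vs NSC, and Bst2 (-0.46) in Oligodendrocyte vs NSC. The cause was not tested. The 2-fold counts moved with the pseudocount by construction. With 0.1, 16 genes were 2-fold higher and 1 lower in Astrocyte vs Neuron. With 5, genes 2-fold higher than in NSC numbered 5 in Neuron and 8 in Oligodendrocyte, and those 2-fold lower 0 and 0. Between media it left 1 gene 2-fold higher in Astrocyte than in Neuron, 3 in Oligodendrocyte than in Neuron, and, for Oligodendrocyte against Astrocyte, 0 at 2-fold higher and 3 at 2-fold lower. A filter of 5 CPM, which tests fewer genes, left 5 genes 2-fold higher in Astrocyte vs Neuron, and 10 higher and 3 of them 2-fold higher in Oligodendrocyte vs Neuron.

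Median-of-ratios scaling gave 2 lower genes in Astrocyte vs NSC, 1 gene 2-fold lower in Astrocyte vs Neuron, 12 lower in Oligodendrocyte vs Neuron and 3 higher in Oligodendrocyte vs Astrocyte. Quantile normalization gave 3 lower in Astrocyte vs NSC, 10 at 2-fold higher in Oligodendrocyte vs NSC, 1 at 2-fold lower in Astrocyte vs Neuron, and 13 lower and 3 at 2-fold higher in Oligodendrocyte vs Neuron. When libraries were left out in turn, the lower genes in Astrocyte vs NSC numbered 0 to 1, the 2-fold lower genes 0 to 1 in Astrocyte vs Neuron and 1 to 3 in Neuron vs NSC, the higher genes in Oligodendrocyte vs Astrocyte 3 to 7, and the lower genes in Oligodendrocyte vs Neuron 3 to 8.

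Deviations from group means correlated at -0.51 to 0.41 (median 0.03) over 15 pairs of libraries with the same replicate number. For 30 pairs with other numbers these values were -0.54 to 0.54 (median -0.01). Deviations within a group sum to 0, so the correlations depend on each other and cannot settle whether the numbers pair libraries. With the replicate number as a block, Oligodendrocyte vs Neuron had 14 higher, 5 lower and 7 at 2-fold higher, Oligodendrocyte vs Astrocyte had 23 lower, and the other counts were equal to those without the block. Calls lost were Rtp4, Ddx58 and H2-K1 in Oligodendrocyte vs Neuron and Ifnar2 in Oligodendrocyte vs Astrocyte. Where 1 Oligodendrocyte library was left, it was assumed to vary like the other groups. The group of 2 limits the precision of the Oligodendrocyte comparisons, and 1 read was worth 0.0151 to 0.0203 CPM.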
